A study of Mus musculus with 12 samples.

Results

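Doublecortin (Dcx) and 9 other genes best known from neurons, whose products bind or build microtubules, were followed through 12 RNA-seq libraries of mouse muscle stem cells (MuSCs) and myoblasts. The members were Dcx and its relatives Dclk1 and Dclk2, the structural proteins Map1b and Map2, the β-tubulin Tubb3 and the stathmins Stmn1, Stmn2, Stmn3 and Stmn4. They were chosen by name around Dcx, which the study had singled out between the genotypes, so their values in that comparison are given as a description, with no test. All 10 had values in at least 1 of 2 tables, out of 17505 genes in either. Of these, 8 were in the genotype table, 9 were in the myoblast table and 7 were in both.

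The genotype table compared freshly sorted MuSCs of 3 WT mice with those of 3 Nedd4L-cKO mice (Nedd4L fl/fl Pax7 cre/+, C57BL/6 background), all males aged 5 to 6 weeks. Cre from the Pax7 locus removes exon 15 of the ubiquitin ligase gene Nedd4l in cells that have expressed Pax7 and in their progeny. The remaining transcript is still made without that exon. The myoblast table compared MuSCs of 3 further WT mice (mice 04, 05 and 06) with myoblasts grown for 3 days in growth medium from the same mice. Each library was made from 1000 cells with SMART-seq. MuSCs were gated as ITGA7+, CD31-, CD45-, CD11b- and SCA1-. Levels are given as RPM, the normalized counts of a gene divided by the mean library total of its table and multiplied by 1000000. Library totals were 40323468 to 50687122 normalized counts in the genotype table and 33189802 to 37595659 in the myoblast table. The read depth itself is unknown. The 2 tables were normalized separately, so levels are set side by side across them but were compared only within a table.

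Microtubules are hollow polymers of α- and β-tubulin that grow and shrink at their ends. Doublecortin binds between the protofilaments and stabilises the lattice in migrating neurons, and the DCLK proteins join doublecortin domains to a kinase domain. MAP1B and MAP2 are structural microtubule-associated proteins of axons and dendrites, whereas stathmins sequester tubulin dimers and favour disassembly. In muscle, the microtubule network is rearranged when mononucleated myoblasts differentiate and fuse.

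The promoters of Dcx, Dclk1 and Map2 are shown because their transcripts had the highest value relative to control in Nedd4L-cKO MuSCs, the largest rise in myoblasts and the largest fall in myoblasts among the members. RefSeq promoters on GRCm38.p6 were matched by symbol for 7 of the 10 members. The 250 bases before the most upstream start are printed 5′ to 3′ on the strand of the gene, with each CG dinucleotide in capitals. They cover chrX:143933220-143933469 (minus strand) for Dcx, chr3:55242114-55242363 (plus strand) for Dclk1 and chr1:66175079-66175328 (plus strand) for Map2.
Dcx: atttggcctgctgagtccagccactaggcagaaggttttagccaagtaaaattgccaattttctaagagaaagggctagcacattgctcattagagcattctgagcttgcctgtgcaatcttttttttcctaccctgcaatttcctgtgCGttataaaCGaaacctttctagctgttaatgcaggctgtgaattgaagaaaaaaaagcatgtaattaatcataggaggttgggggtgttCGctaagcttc
Dclk1: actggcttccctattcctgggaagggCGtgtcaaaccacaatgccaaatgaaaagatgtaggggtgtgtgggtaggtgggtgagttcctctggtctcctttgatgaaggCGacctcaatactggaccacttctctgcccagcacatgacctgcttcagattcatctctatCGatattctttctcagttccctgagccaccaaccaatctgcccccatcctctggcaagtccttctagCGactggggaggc
Map2: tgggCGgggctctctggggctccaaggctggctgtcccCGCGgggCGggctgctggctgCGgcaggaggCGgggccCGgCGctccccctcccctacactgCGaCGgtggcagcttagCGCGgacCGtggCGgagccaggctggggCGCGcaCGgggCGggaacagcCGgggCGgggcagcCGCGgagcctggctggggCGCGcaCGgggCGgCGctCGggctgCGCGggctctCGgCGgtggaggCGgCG
The Dcx stretch held 3 CG dinucleotides and the Dclk1 stretch 4, against 34 in that of Map2. The median over 32851 mouse promoters of that length was 6, and 96.5% of them held fewer CG than Map2. Dclk2 and Tubb3 had 21 each, Map1b 19 and Stmn3 3. The E-box letters CANNTG, which match on both strands alike and can share bases with a CG where NN is CG, were found 2 times before Dclk1, 1 time before Map1b, 1 time before Stmn3 and not before Dcx, Dclk2, Tubb3 or Map2. Of all promoters, 66.2% held at least 1.

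**Figure D1:**
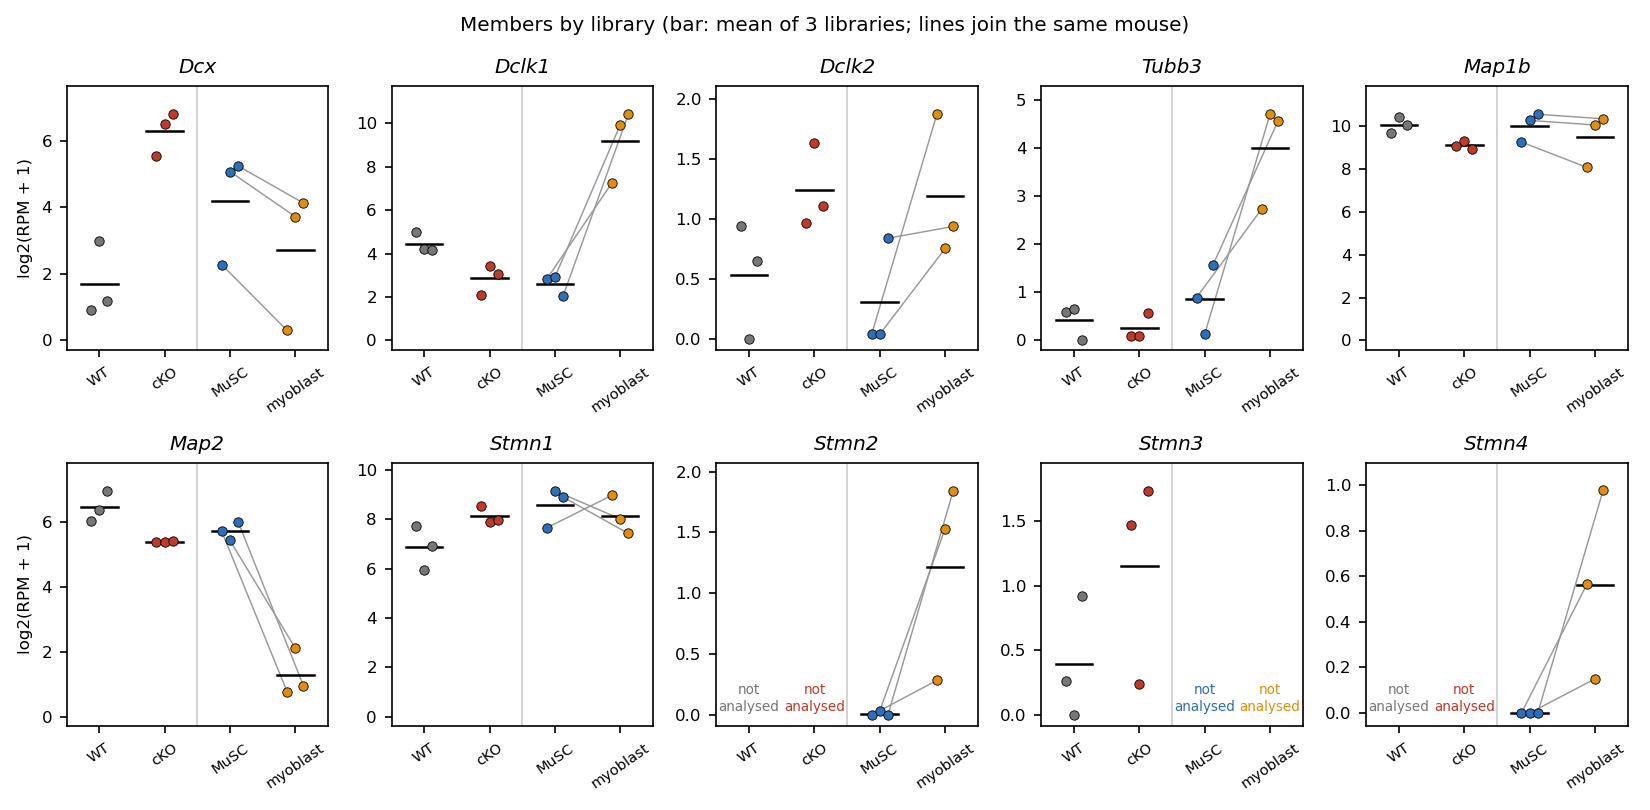
Level of each member as log2(RPM + 1) on the vertical axis, with 1 point per library, a bar at the mean of 3 libraries and a separate vertical scale for each gene. WT and cKO are the genotype table, MuSC and myoblast the other table, and grey lines join the 2 libraries of a mouse. Dcx points of cKO sit above those of WT, Map2 drops and Dclk1 and Tubb3 climb along every grey line.

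Dcx (ENSMUSG00000031285, chrX:142638838-142716307 on GRCm39, minus strand) was low in WT MuSCs of the genotype table, at 0.866, 7.01 and 1.27 RPM in replicates 01, 02 and 03. In Nedd4L-cKO MuSCs it was 45.3, 91.1 and 110.8 RPM. The groups did not overlap, and the highest WT library was the second. The means were 3.05 ± 3.44 and 82.4 ± 33.6 RPM (SD, n = 3 each), a log2 fold change of 4.59 (SE 0.53). In bulk RNA, fewer cells that express a gene and less RNA per cell cannot be told apart.

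In the other table, Dcx was 3.84 RPM in WT MuSCs of mouse 04, 32.8 RPM in mouse 05 and 37.0 RPM in mouse 06. Myoblasts of the same mice had 0.226, 12.2 and 16.5 RPM. Dcx was thus lower after culture in 3 of 3 mice, by log2 differences of -1.98, -1.36 and -1.12, while mouse 04 was low in both states. Without regard to mouse, the change of -1.49 was not past the threshold (95% confidence interval -3.92 to 0.95, adjusted p = 0.29 in limma). With the mouse as a block in the limma fit, its SE narrowed from 1.07 to 0.34 and Dcx fell at an adjusted p of 0.0133.

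Cell-cycle genes were set beside these values. The summed level of 15 proliferation genes was 658, 287.5 and 316 RPM in WT replicates 01, 02 and 03. In Nedd4L-cKO MuSCs it was 841, 653 and 805 RPM in the same order. Within each genotype, replicate 01 had the least Dcx and the highest sum. Only Ccnb1, a mitotic cyclin, passed the thresholds between the genotypes (log2 fold change 2.20, SE 0.40, adjusted p = 0.0325 in limma). All 15 had fold changes above 0, with a median of 1.28, where 50.1% of all genes tested were above 0. At an unadjusted p under 0.05 in limma there were 8 of 15, against 14.6% of all genes tested. In the other WT cohort the sum was 858 RPM in MuSCs of mouse 04, the mouse with least Dcx, and 1750 and 1655 RPM in mice 05 and 06. In myoblasts it was 4041, 2561 and 1524.5 RPM in the same order, so there the library with least Dcx had the highest sum. The part of these genes in the Dcx values was not tested.

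Dclk1 (ENSMUSG00000027797, chr3:55149618-55446493, plus strand), the closest relative of Dcx with an added kinase domain, had the opposite order in both comparisons. WT MuSCs had 30.5, 17.3 and 16.7 RPM and Nedd4L-cKO MuSCs 3.26, 9.86 and 7.40 RPM. The groups did not overlap, and the log2 fold change was -1.57 (SE 0.40). In the myoblast table, Dclk1 was 6.06, 6.49 and 3.11 RPM in MuSCs of mice 04, 05 and 06 and 152.8, 973.8 and 1370 RPM in their myoblasts. It rose in 3 of 3 mice, least in mouse 04, with a log2 fold change of 6.62 (SE 0.71, adjusted p = 0.00014 in limma). Leaving out each library in turn gave values between 6.01 and 7.59, all past the threshold.

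Dclk2 (ENSMUSG00000028078, chr3:86690138-86828316, minus strand), a further doublecortin-domain kinase, stayed near the lower limit of the data. It was 0.916, 0 and 0.568 RPM in WT and 0.951, 2.11 and 1.16 RPM in Nedd4L-cKO MuSCs. The groups narrowly missed overlapping, with a log2 fold change of 0.71 (SE 0.31). In MuSCs of mice 04, 05 and 06 it was 0.0237, 0.025 and 0.788 RPM, and in their myoblasts 2.67, 0.685 and 0.914 RPM. The groups overlapped, and the change of 0.89 did not pass the test (95% confidence interval 0.10 to 1.67, adjusted p = 0.0674 in limma). Its adjusted p-values ran from 0.0375 to 0.187 when single libraries were left out, and it was called only without the MuSC library of mouse 06.

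Map1b (ENSMUSG00000052727, chr13:99557954-99653137, minus strand), which stabilises microtubules in growing axons, was 829, 1366 and 1073 RPM in WT and 543, 632 and 496 RPM in Nedd4L-cKO MuSCs. Every Nedd4L-cKO library lay below every WT library, with a log2 fold change of -0.94 (SE 0.25). In the myoblast table it was 616, 1242 and 1516 RPM in MuSCs and 271, 1072 and 1309 RPM in myoblasts of mice 04, 05 and 06. As with Dcx, mouse 04 was lowest in both states and the groups overlapped, and the myoblast value was the lower one in 3 of 3 mice, by log2 differences of -1.18, -0.21 and -0.21. The change of -0.53 did not pass the test (95% confidence interval -1.81 to 0.75, adjusted p = 0.473 in limma), and it was 0.17 in the unpaired fit without the myoblasts of mouse 04, which kept the MuSCs of that mouse. The mouse as a block gave an adjusted p of 0.112.

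Map2 (ENSMUSG00000015222, chr1:66214327-66481746, plus strand), the dendritic counterpart of tau, was 64.7, 81.9 and 123.7 RPM in WT and 40.4, 40.6 and 42.0 RPM in Nedd4L-cKO MuSCs. The Nedd4L-cKO libraries were close together and all below the WT range, with a log2 fold change of -1.07 (SE 0.28). In the second cohort, MuSCs of mice 04, 05 and 06 had 51.3, 42.1 and 63.3 RPM, whereas their myoblasts had 0.709, 3.34 and 0.938 RPM. Map2 fell in 3 of 3 mice, with a log2 fold change of -4.43 (SE 0.41, adjusted p = 5.72e-05 in limma). Map1b and Map2 were thus both lower in Nedd4L-cKO than in WT MuSCs, while only Map2 of the pair passed the test in culture. The difference between the 2 genes in culture was not tested.

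Tubb3 (ENSMUSG00000062380, chr8:124138163-124150092, plus strand), the β-tubulin used as a marker of young neurons, was near 0 in MuSCs. It was 0.497, 0.564 and 0 RPM in WT and 0.053, 0.0649 and 0.475 RPM in Nedd4L-cKO MuSCs, and the groups overlapped. Its log2 fold change was -0.17 (SE 0.24). In the second cohort it was 0.846, 0.0862 and 1.94 RPM in MuSCs and 5.65, 25.1 and 22.8 RPM in myoblasts of mice 04, 05 and 06. Tubb3 rose in 3 of 3 mice, with a log2 fold change of 3.15 (SE 0.59, adjusted p = 0.00275 in limma).

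Stmn1 (ENSMUSG00000028832, chr4:134195021-134201882, plus strand), the widely expressed stathmin that dividing cells also use, was 210.5, 60.3 and 120.9 RPM in WT and 365.5, 236.4 and 249.2 RPM in Nedd4L-cKO MuSCs. The groups did not overlap, and the log2 fold change was 1.26 (SE 0.39). The WT library with most Stmn1, replicate 01, also had the highest summed proliferation genes of the WT libraries. In the second cohort, Stmn1 was 199.9, 566.9 and 475.0 RPM in MuSCs and 499.3, 256.9 and 170.6 RPM in myoblasts of mice 04, 05 and 06. It was higher in the myoblasts of mouse 04 and lower in those of the other mice, so the groups overlapped and the change of -0.43 did not pass the test (95% confidence interval -1.47 to 0.61, adjusted p = 0.476 in limma). In both states the library with most Stmn1 was also the one with the highest proliferation sum, and the part of proliferation in these values was not tested.

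The neuronal stathmins were scarce throughout. Stmn3 (ENSMUSG00000027581, chr2:180948247-180956293, minus strand) was 0.198, 0 and 0.894 RPM in WT and 1.78, 0.182 and 2.34 RPM in Nedd4L-cKO MuSCs, with overlapping groups and a log2 fold change of 0.76 (SE 0.39). Stmn2 (ENSMUSG00000027500, chr3:8574151-8626667, plus strand), which is known from growing axons, was listed at 0 RPM in MuSCs of mice 04 and 06 and at 0.0241 RPM in mouse 05. In their myoblasts it was 0.218, 1.89 and 2.59 RPM for mice 04, 05 and 06. Stmn4 (ENSMUSG00000022044, chr14:66581745-66599131, plus strand) was listed at 0 in the 3 MuSC libraries and at 0.478, 0.109 and 0.968 RPM in the myoblast libraries. Both lay below the filter of 10 normalized counts in 3 libraries and were not tested. Without the filter, Stmn2 passed the test (adjusted p = 0.0274 in limma) and Stmn4 did not (adjusted p = 0.0644). Stmn2 and Stmn4 were not analysed here in the genotype table, and Stmn3 not in the myoblast table.

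**Figure D2:**
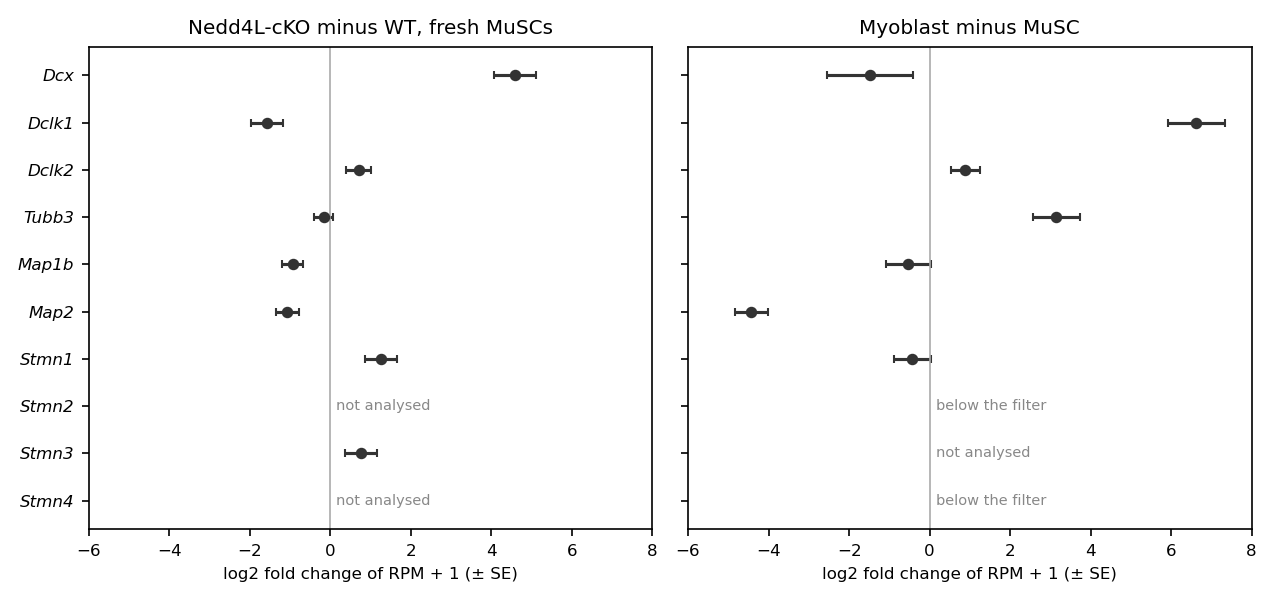
Log2 fold change of RPM + 1 (horizontal axis, point) with its SE (bar) for each member, for Nedd4L-cKO minus WT MuSCs on the left and myoblast minus MuSC on the right. Dcx stands at 4.59 on the left and -1.49 on the right, Dclk1 at -1.57 and 6.62, and Map2 lies below 0 in both.

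Between the genotypes, the groups did not overlap for 6 of the 8 members analysed, against 19.3% of all 15304 genes tested. Since the list was built around Dcx in this comparison, that count is a description only. Between myoblasts and MuSCs, 2 of 7 tested members rose (Dclk1 and Tubb3) and 1 fell (Map2), where 22.2% of 15345 genes were called higher and 20.6% lower. Non-overlapping groups were seen for 3 of the 7, against 55.2% of all genes tested. With so many genes called in culture, these counts are near the background.

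Per length, the order of the members changed between the groups. Levels per kilobase used the length of 1 canonical transcript of each gene, although other isoforms may be in use. In WT MuSCs of the genotype table, Map1b (91.6 ± 22.6 RPM per kilobase, SD, n = 3) and Stmn1 (73.0 ± 42.3) led and did not differ beyond their spread. Map2 (9.28 ± 3.13) and Dclk1 (2.65 ± 0.964) followed, and Dcx, Stmn3, Tubb3 and Dclk2 were between 0.0683 and 0.336 on average, within their spread of each other. In Nedd4L-cKO MuSCs, Stmn1 (159 ± 39.8) lay above Map1b (46.8 ± 5.81), and Dcx (9.08 ± 3.71) came next, above Map2 (4.22 ± 0.0916).

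In the second cohort, MuSCs had Stmn1 (232 ± 107 RPM per kilobase) and Map1b (94.6 ± 38.8) first, then Map2 (5.38 ± 1.10) and Dcx (2.71 ± 1.99). The SDs overlapped within each of these pairs, but in each mouse Stmn1 lay above Map1b and Map2 above Dcx. In myoblasts, Stmn1 (173 ± 95.3), Dclk1 (103 ± 76.5) and Map1b (74.3 ± 45.7) were not separated by their spread. Tubb3 (5.57 ± 3.32) and Dcx (1.06 ± 0.928) came next. Map2, at 0.171 ± 0.15 RPM per kilobase, was the lowest member there, beside Dclk2 at 0.197 ± 0.15.

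The rise of Tubb3 left it a small part of the β-tubulin pool. Of the summed RPM per kilobase of 7 β-tubulins, Tubb3 made up 0.0443% ± 0.0427 (SD, n = 3) in MuSCs and 0.594% ± 0.342 in myoblasts of the second cohort. Tubb6, an isotype abundant in differentiating muscle, had 25.4% ± 4.08 in MuSCs and 45.0% ± 3.44 in myoblasts, whereas Tubb2a went from 30.5% ± 0.993 to 19.6% ± 3.97 and Tubb4b from 25.1% ± 1.21 to 15.7% ± 2.85. None of these 3 ranges overlapped between the states. In the genotype table, Tubb3 had 0.0209% ± 0.0196 in WT and 0.012% ± 0.0151 in Nedd4L-cKO MuSCs, and Tubb4b had 27.1% ± 3.31 and 37.8% ± 5.65. The shares were not tested, and reads of near-identical tubulin genes may have been split between them by the estimation of counts.

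**Figure D3:**
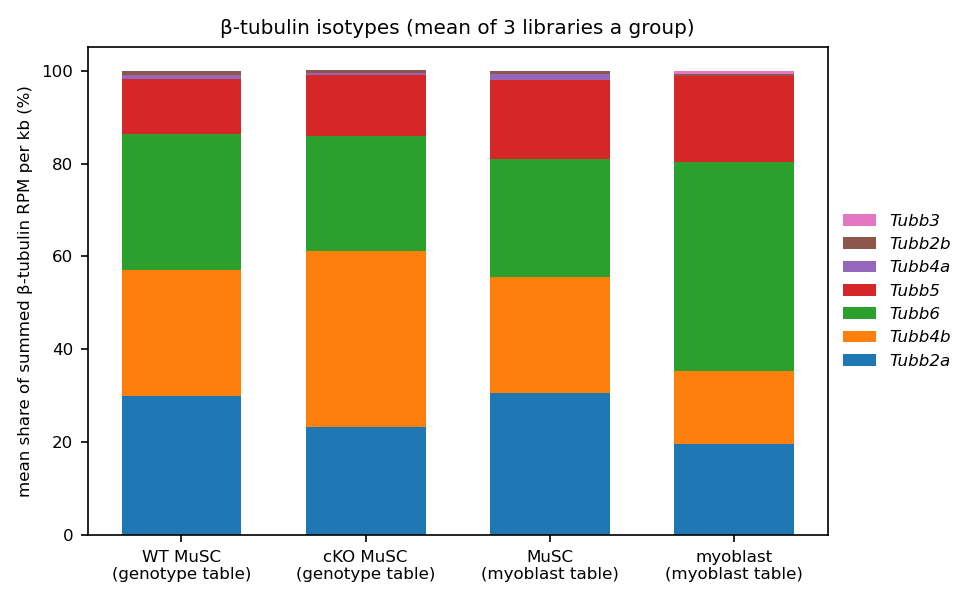
Mean share of each of 7 genes in the summed β-tubulin RPM per kilobase (vertical axis, percent, 3 libraries a group) as stacked bars. Tubb6 takes 45.0% in myoblasts against 25.4% in MuSCs of the same mice, and Tubb3 is a thin band that stays under 1% in every group.

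The wider microtubule machinery was described with 8 lists of 122 other genes. Between the genotypes, none of the 107 tested passed the thresholds of the study in limma (an adjusted p up to 0.05, a change of 1 or more on the log2 scale either way, and 5 RPM or more on average), where 0.653% of all genes tested did. The study applied its thresholds to DESeq2 results and reported more genes than the 100 of 15304 called here, so its own calls can differ. At an unadjusted p under 0.05 in limma there were 17 of the 107 (9 above and 8 below WT). That is 15.9%, near the 14.6% of all genes tested, and none was called with limma run without trend and robust options. The median log2 fold change of the 107 was -0.14, against 0 over all genes tested. By list, the medians ran from -0.39 for other doublecortin-superfamily genes and -0.37 for end-binding and tracking proteins (3 of 15 above 0) to 0.20 for tubulins. Structural MAPs, severing enzymes and kinases each had -0.01, dynein and Lis1 genes -0.16 and tubulin-modifying enzymes -0.18. No call followed from these medians.

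Of these genes, 4 passed the thresholds only when a library was left out, and they are named for that after their values were seen. Tuba1c, an α-tubulin, was 25.1 ± 12 RPM in WT and 69.2 ± 3.16 RPM in Nedd4L-cKO MuSCs (log2 fold change 1.52, SE 0.32, adjusted p = 0.0548 in limma), and it was called without WT replicate 01 (adjusted p = 0.0187). Dynll1, a dynein light chain, had a log2 fold change of 1.26 (SE 0.27, adjusted p = 0.0609) and Kif24, a depolymerising kinesin of centrioles, one of 1.81 (SE 0.45, adjusted p = 0.097). Both were called without WT replicate 03, at 0.0466 and 0.0359. Mapre3, the end-binding protein EB3, was 24.1 ± 4.55 RPM in WT and 7.70 ± 3.31 RPM in Nedd4L-cKO MuSCs (log2 fold change -1.57, SE 0.34, adjusted p = 0.0611), and it was called without Nedd4L-cKO replicate 03 (adjusted p = 0.0368).

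Between myoblasts and MuSCs, 55 of the 107 tested list genes were called, 36 higher and 19 lower, and 52 were not. That is 51.4%, against 42.8% of all genes tested (22.2% higher and 20.6% lower), and the counts of rises and falls by list stand beside the same background. Their median log2 fold change was 0.40, against 0.04 over all genes tested. The relatives of Dcx went both ways. Dclk3, a kinase related to the DCLK family, fell from 9.70 ± 3.58 to 0.0817 ± 0.0949 RPM (log2 fold change -3.25, SE 0.35, adjusted p = 0.000141 in limma). Dcdc2c, with doublecortin domains, rose from 2.12 ± 0.614 to 5.66 ± 2.06 RPM (log2 fold change 1.07, SE 0.35, adjusted p = 0.0345), and the remaining 1 of 3 tested was not called.

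Among 14 tested tubulins, 4 rose and 2 fell. Tuba4a rose from 3.25 ± 1.25 to 68.6 ± 12 RPM (log2 fold change 4.06), Tuba1b by 1.70, Tuba1c by 1.41 and Tubb6 by 1.24. Tubb4a fell by 3.32, from 18.0 ± 7.99 to 0.889 ± 0.765 RPM, and the γ-tubulin Tubg2 fell by 1.29 on the log2 scale. Structural MAPs had 4 rises and 3 falls among 13. Mtus1, which binds microtubules and mitochondria, fell by 4.12, Mapt, which encodes tau, fell by 2.86 from 22.4 ± 6.66 to 2.16 ± 0.303 RPM, and Map7d3 fell by 1.63 on the log2 scale. Map1s rose by 2.05, from 26.9 ± 0.655 to 115.0 ± 10.2 RPM, Map6, which stabilises microtubules against cold, by 2.01 and Map9 by 1.23 on the log2 scale.

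End-binding and tracking proteins had 3 rises and 5 falls among 17. Clip3 fell by 2.43, Mapre2, the end-binding protein EB2, by 2.07 and Tacc1 by 1.57, while Clip4 rose by 2.28, Tacc2 by 1.75 and Slain2 by 1.08 on the log2 scale. All 4 called genes of the 12 severing and depolymerising enzymes rose, among them Katnal1, a katanin subunit (log2 fold change 2.13), the kinesin Kif2c (1.06) and Katnbl1 (0.85). Of 18 tubulin-modifying enzymes, 8 rose and 1 fell. Agbl5, a deglutamylase, rose by 2.17, Vash2, a detyrosinating carboxypeptidase, by 2.08 and Ttll12 by 1.92, and the deacetylase Sirt2 fell by 1.78 on the log2 scale.

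The dynein and Lis1 list, which moves nuclei in neurons and myotubes, had 6 rises and 4 falls among 15. Dync1i1, a dynein intermediate chain, rose by 3.27 from 4.40 ± 0.987 to 59.8 ± 44.5 RPM, and the cargo adaptors Bicd2 and Bicd1 by 2.43 and 1.35. The Lis1 partners Ndel1 and Nde1 fell by 1.28 and 0.88, and the light chain Dynll2 by 0.73 on the log2 scale. Of 15 kinases acting on MAPs, 6 rose and 3 fell. Camk2a rose by 3.38, Cdk5r1, the activator of CDK5, by 1.44 and Mark4 by 1.32. Mapk9 fell by 1.10, Gsk3b by 0.86 and Cdk5, which phosphorylates doublecortin, by 0.85 on the log2 scale. The adjusted p-values of the 55 calls in limma were at most 0.05 by rule, and leaving out single libraries gave 39 to 57 calls.

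**Figure D4:**
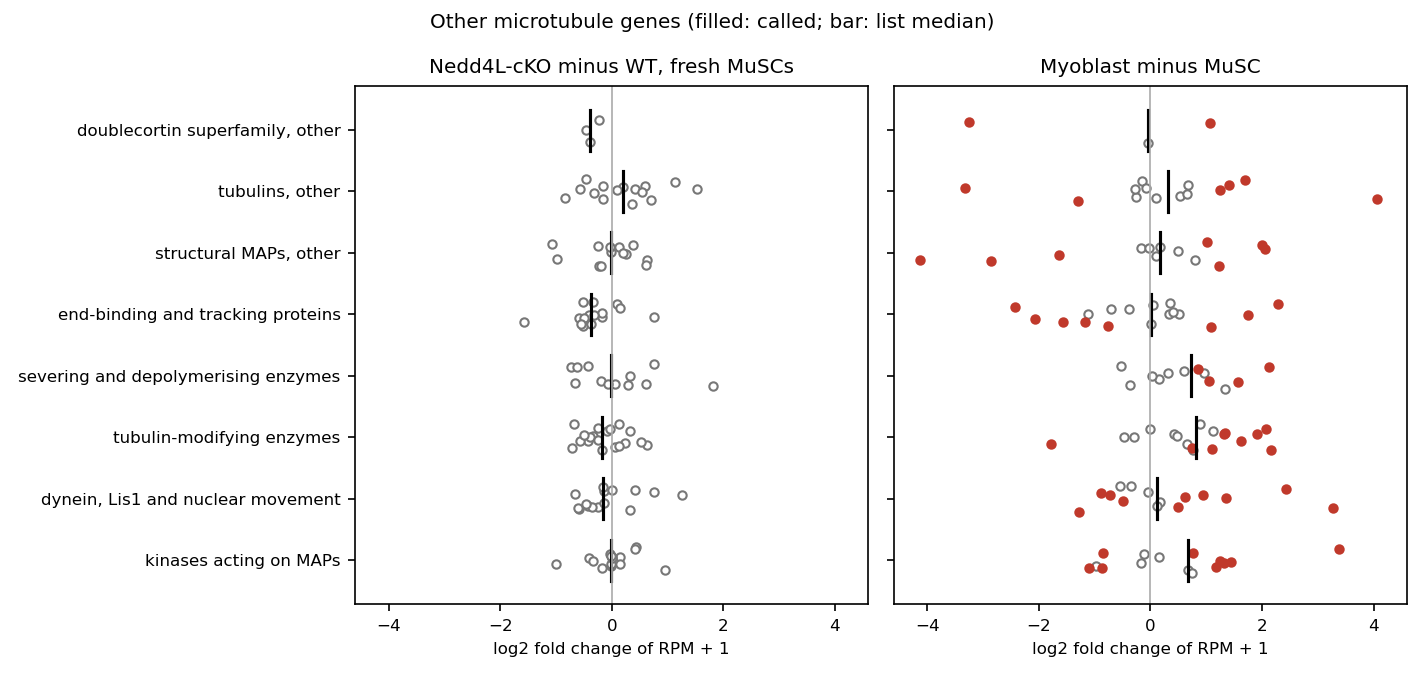
Log2 fold change of RPM + 1 (horizontal axis) of the other microtubule genes, 1 point per tested gene, by list, for Nedd4L-cKO minus WT MuSCs on the left and myoblast minus MuSC on the right. Filled points passed the thresholds and bars mark list medians. No point is filled on the left, and 55 are on the right, from Mtus1 on the far left to Tuba4a on the far right.

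Markers of other cells were examined because the members are known from neurons. Of 12 neuron markers, 3 had values in the genotype table, with a summed level of 0.354 to 2.56 RPM in WT and 1.45 to 2.66 RPM in Nedd4L-cKO MuSCs. In the other table, 6 of 12 had values, summing to 3.68 to 5.03 RPM in MuSCs and 3.22 to 8.67 RPM in myoblasts. There the neurofilament genes Nefl and Nefh were listed at 0 in all 3 MuSC libraries, Nefm rose (log2 fold change 1.26, adjusted p = 0.0306 in limma) and the synaptic vesicle gene Syp fell (-0.99, adjusted p = 0.0449). Of 10 Schwann cell and glia markers, 8 had values in the genotype table and summed to 25.4 to 61.1 RPM in WT and 10 to 42.2 RPM in Nedd4L-cKO MuSCs, with 2 of 8 fold changes above 0 and none called. The highest Nedd4L-cKO sum was in replicate 03, which also had most Dcx. The lowest, 10 RPM, was in replicate 02, where Dcx was 91.1 RPM. In WT the lowest sum, 25.4 RPM, was in replicate 02, which had the most Dcx of that group. The part of such cells in the Dcx values was not tested. In the other table, values were there for 5 of 10, and their sums were 6.74 to 18.1 RPM in MuSCs and 7.19 to 13.9 RPM in myoblasts, with none called.

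The labelled cell types were checked with their own markers. The 9 MuSC markers summed to 5795 to 9794 RPM in WT and 5048 to 8259.6 RPM in Nedd4L-cKO MuSCs, where Chrdl2 and Cd34 were lower (log2 fold changes -2.46 and -1.64, adjusted p = 0.00296 and 0.0293 in limma). They summed to 651 to 699 RPM in myoblasts, against 5746.5 to 8592 RPM in MuSCs of the same mice, and 8 of 9 fell. Myoblast and differentiation markers summed to 14623 to 27649 RPM in myoblasts and 1275 to 1651 RPM in MuSCs of the same mice, and 9 of 10 rose. Acta1, a sarcomere gene, was the largest part of the myoblast sums, at 10117 ± 3736 RPM against 177.1 ± 98.4 RPM in MuSCs. Sums were 14623, 18834 and 27649 RPM in myoblasts of mice 04, 05 and 06. Dcx, Dclk1, Map1b and Stmn2 climbed in that order, Stmn1 fell, and the other members with values did neither. The part of differentiation in these values was not tested. Between the genotypes these markers summed to 431 to 1388 RPM in WT and 876 to 1295 RPM in Nedd4L-cKO MuSCs. There 9 of 10 fold changes were above 0, with a median of 0.71 and none called. At an unadjusted p under 0.05 there were 4 of them, all higher in Nedd4L-cKO, and their part in the values of the members was not tested. Smooth muscle and pericyte markers ranged from 365 to 1211 RPM in WT and from 510.4 to 2223 RPM in Nedd4L-cKO MuSCs. Of the 5, 4 had fold changes above 0, with a median of 1.02, and none was called. At an unadjusted p under 0.05 in limma there were 3, all higher in Nedd4L-cKO, against 14.6% of all genes tested. Sums were 510.4, 1418 and 2223 RPM in Nedd4L-cKO replicates 01, 02 and 03, rising in the order of Dcx. In WT they were 365, 674 and 1211 RPM, where Dcx was highest in replicate 02. Rgs5 was the largest part of each sum, with 627.9 ± 380.2 RPM in WT and 1190 ± 798 RPM in Nedd4L-cKO MuSCs. In the second cohort the same markers summed to 36.9 to 46.5 RPM in MuSCs and 30.1 to 55.4 RPM in myoblasts. Rgs5 was 9.82 ± 6.18 RPM in those MuSCs. The part of smooth muscle cells and pericytes in the Dcx values was not tested. Fibro-adipogenic markers (292 to 487 against 316 to 352 RPM), endothelial markers (56.2 to 104 against 39.3 to 71.7 RPM) and immune markers (2.24 to 5.15 against 2.13 to 4.48 RPM) overlapped between WT and Nedd4L-cKO. In the second cohort fibro-adipogenic markers were 426 to 522 RPM in MuSCs and 9.20 to 12.4 RPM in myoblasts, nearly all of it Dpt, which was 459.8 ± 47.8 RPM in MuSCs and listed at 0 in the 3 myoblast libraries. Ly6a, which encodes the SCA1 of the sorting gate, rose from 0.152 ± 0.24 to 1.94 ± 0.528 RPM (log2 fold change 1.35, adjusted p = 0.00239 in limma), and Pdgfra was at most 2.39 RPM in a MuSC library. Endothelial markers there were 41.9 to 44.3 RPM in MuSCs and 7.82 to 13.8 RPM in myoblasts. Most of that fall was Tek, from 29.8 ± 4.68 to 0.411 ± 0.458 RPM (adjusted p = 2.4e-05 in limma). Pecam1 was 12.9 ± 3.27 and 9.73 ± 2.77 RPM and was not called. Between the genotypes Tek was lower and Pecam1 higher in Nedd4L-cKO, with neither called. The targeted gene, Nedd4l, was 70.2, 96.4 and 66.7 RPM in WT and 30.2, 36.3 and 22.5 RPM in Nedd4L-cKO MuSCs, so every Nedd4L-cKO library lay below every WT library. These gene-level values do not show the deleted exon itself. In the second cohort Nedd4l was 126, 77.6 and 76.3 RPM in MuSCs and 42.0, 30.3 and 29.8 RPM in myoblasts.

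The genes with a pattern most like that of Dcx were sought by the Pearson correlation of log2(RPM + 1), centred within each table, over the 12 libraries and 14321 genes tested in both tables. The 5 nearest were Chmp5 (r = 0.905), an ESCRT component, Upp2 (0.900), a uridine phosphorylase, the mitochondrial gene mt-Nd5 (0.884), the RNA-binding gene Rbms2 (0.883) and the metal transporter Slc39a14 (0.875). Slc39a14, for example, was 55.0 ± 5.30 RPM in WT, 102 ± 16.1 in Nedd4L-cKO MuSCs, 46.1 ± 7.46 in MuSCs of the second cohort and 33 ± 13.9 in their myoblasts. Centring by table and not by group kept the gap between Nedd4L-cKO and WT, for which Dcx had been singled out, in each correlation. The points also share libraries, mice and normalization, so these correlations are a description. No member was among the 5 nearest, and the members' own correlations with Dcx ran from -0.297 for Dclk1 to 0.352 for Stmn1.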

How the data were processed

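SMART-seq libraries were made from 1000 cells each. Per the labels and methods, reads were quantified with Kallisto 0.46.1 against the GENCODE M28 basic set, gene totals were made with tximport, and DESeq2 supplied the normalization. The deposited values used here are a signal, counts over normalization factors set by the authors for every gene and library, with 1 table per comparison. Depth is therefore unknown. The authors' own fold changes and p-values were not used.

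RPM was obtained from the normalized counts by dividing by the mean of the 6 library totals of a table. Genes reaching 10 normalized counts in 3 or more libraries were tested on log2(RPM + 1) with limma 3.58.1 in R 4.3.3 (eBayes with trend and robust options, Benjamini-Hochberg adjustment over all tested genes). Fold changes on this scale understate changes of low genes. Calls between myoblasts and MuSCs needed an adjusted p up to 0.05. Calls between genotypes also needed a log2 change of 1 or more either way and 5 RPM or more on average, as in the study. The fit was also run on simulated data, with the same spread for all genes and 200 genes changed, none of them low. That run does not show how the fit performs on low or variable genes.

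Replicates were the mice given by the labels. In the myoblast table the MuSC and myoblast libraries of a mouse carry 1 number in the labels, which pairs them, although the deviations of same-numbered libraries over all genes correlated at -0.0314, -0.00502 and 0.018. Alternatives were a pseudocount of 0.1 RPM, no filter, each library scaled to its own total, limma without trend and robust options, a replicate block, other thresholds and each library left out.

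All 10 members and the targeted gene were named. Of each other list, the called genes were named, or the 3 largest rises and 3 largest falls where more than 6 were called. 1 called gene is not reported here. The members and lists were chosen with earlier results of these data known. Gene positions and transcript lengths came from GENCODE M39 on GRCm39. Python and matplotlib were used for summaries and plots.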

Additional observations from a re-analysis of the deposited data

How the results depend on the processing

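Between myoblasts and MuSCs, the number of members called was 3 and stayed between 3 and 4 under the alternatives. It was 4 with the replicate block, which added Dcx, and 4 without the filter, which added Stmn2. Leaving out single libraries gave 3 to 4, with Dclk2 added without the MuSC library of mouse 06. The count of other microtubule genes called was 55, was 51 to 56 under other settings of the fit (52 with the replicate block), was 43 with an added log2 fold change of at least 1, and ranged from 39 to 57 when single libraries were left out. Scaling each library to its own total moved the median of all genes from 0.04 to 0.14 in this comparison and left 37 list genes called higher and 16 lower, with no called gene changing direction. The direction of Map1b reversed, to 0.17, in the unpaired fit without the myoblasts of mouse 04, and its range over single libraries left out was -0.96 to 0.17. Dcx ranged from -2.46 to -0.28 in the same fits. No other direction of a member changed. The replicate block changed no other member call.

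Between the genotypes, the count of other microtubule genes called was 0 under each setting of the fit, the replicate block and adjusted p alone included, and 0 to 2 when single libraries were left out (1 without WT replicate 01, 2 without WT replicate 03, 1 without Nedd4L-cKO replicate 03). Same-numbered libraries there come from different mice, and their deviations correlated at 0.0192, -0.0232 and -0.181, so the numbers were not taken as pairs. The fold change of Dcx stayed between 4.19 and 5.24. With a pseudocount of 0.1 RPM, Dclk2 moved from 0.71 to 1.81 and Stmn3 from 0.76 to 1.82. Members with group means under 1 RPM mostly had SDs near those means, which limits what 3 libraries a group can show of them.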

Other observations

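The α-tubulin pool, taken as the summed RPM per kilobase of 5 genes, was mostly Tuba1a in every group. Tuba1a made up 73.6% ± 3.00 (SD, n = 3) in MuSCs and 57.3% ± 8.54 in myoblasts of the second cohort, Tuba1b 24.3% ± 2.41 and 38.5% ± 7.98, and Tuba4a 0.187% ± 0.144 and 1.66% ± 0.291. In the genotype table Tuba1a had 80.1% ± 1.10 in WT and 75.7% ± 2.99 in Nedd4L-cKO MuSCs, and Tuba1c 2.23% ± 0.902 and 4.59% ± 0.643. These shares were not tested, and reads of near-identical α-tubulin genes may have been split between them.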
